A study of Homo sapiens with 8 samples.

Results

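The response of 2 control clones of CFPAC1 to hIFNb was followed across the H3K27ac peaks of the genome. CFPAC1 is an established tumour cell line from human pancreatic duct, and hIFNb is read here as human interferon beta. The members were the 4 libraries of control clones 1 and 4 out of 8 libraries in all, and all 31961 peaks of the deposited table were used. Each control clone gave 1 library after 2 hours of hIFNb and 1 library labelled UT, read as untreated. The control clones had been grown out singly after infection with the lentiCRISPRv2 plasmid, and their labels name no guide. The other 4 libraries came from IRF1-guide clones 11 and 13, infected with the plasmid and a guide against IRF1, with the same pair of conditions, and they served here to estimate the spread and to test 1 difference. Each group therefore rests on 2 clones, each descended from a single cell of 1 tumour line. The series title concerns IRF1 and the metabolism of low-grade pancreatic cancer cells. The question addressed here is where H3K27ac was higher or lower after hIFNb in cells that carry no guide named in the labels.

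Interferon beta is a secreted antiviral cytokine that binds the receptor made of IFNAR1 and IFNAR2 on nearly every cell type. The receptor's kinases JAK1 and TYK2 phosphorylate STAT proteins, which join IRF9 in the complex ISGF3. ISGF3 binds the interferon-stimulated response element (ISRE) in the promoters and enhancers of interferon-stimulated genes, whose products block viral replication, present antigen and restrain the signal itself. STAT dimers bind a second element, GAS. H3K27ac, acetylation of lysine 27 of histone H3, marks active promoters and enhancers, and its level at a gene is not a measure of that gene's RNA. CFPAC1 is a ductal epithelial line, and epithelial cells are known for answering viral infection with interferon lambda as well as interferon beta.

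Promoters of large rises are shown first, and 4 of them were chosen because they carry the letters of the ISRE. The core searched was GAAA, any 2 bases and GAAA again, on either strand, and its matches are in capitals. The sequences are RefSeq promoters on GRCh38.p14, from 250 bases before to 50 bases after the transcription start site (TSS), on the strand of the gene, and each TSS lies inside its H3K27ac peak. Candidates were limited to promoter peaks among the 12 largest rises linked to a gene and the up to 4 genes named per list. A candidate also needed a RefSeq promoter with its TSS in the peak. The first 4 belong to the largest rises among these candidates whose promoter held the core. They are IFNL2 at chr19:39268146-39268445 on the plus strand, IFNL3 at chr19:39245201-39245500 on the minus strand, IFNL1 at chr19:39296157-39296456 on the plus strand and CXCL10 at chr4:76023448-76023747 on the minus strand. CYP1A1, at chr15:74725479-74725778 on the minus strand, is the largest rise among the same candidates without the core. VAV3, at chr1:107688450-107688749 on the minus strand, is the largest promoter fall with its TSS inside the peak. The TSS lies within the gene, at a shorter VAV3 transcript.
IFNL2: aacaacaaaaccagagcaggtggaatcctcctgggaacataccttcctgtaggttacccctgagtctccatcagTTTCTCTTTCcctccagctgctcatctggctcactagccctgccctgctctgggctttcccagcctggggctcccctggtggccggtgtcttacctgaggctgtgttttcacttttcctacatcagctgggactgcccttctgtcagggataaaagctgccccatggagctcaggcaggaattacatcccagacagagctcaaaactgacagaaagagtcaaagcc
IFNL3: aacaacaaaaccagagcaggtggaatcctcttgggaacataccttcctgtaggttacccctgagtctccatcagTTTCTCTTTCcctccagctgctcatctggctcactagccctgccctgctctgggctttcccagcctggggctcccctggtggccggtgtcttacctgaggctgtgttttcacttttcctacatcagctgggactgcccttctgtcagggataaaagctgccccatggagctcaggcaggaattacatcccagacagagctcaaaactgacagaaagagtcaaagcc
IFNL1: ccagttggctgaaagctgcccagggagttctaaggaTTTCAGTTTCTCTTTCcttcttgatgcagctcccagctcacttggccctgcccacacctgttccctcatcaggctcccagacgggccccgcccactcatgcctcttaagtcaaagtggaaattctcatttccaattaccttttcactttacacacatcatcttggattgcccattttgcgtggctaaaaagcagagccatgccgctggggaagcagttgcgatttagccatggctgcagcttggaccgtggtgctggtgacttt
CXCL10: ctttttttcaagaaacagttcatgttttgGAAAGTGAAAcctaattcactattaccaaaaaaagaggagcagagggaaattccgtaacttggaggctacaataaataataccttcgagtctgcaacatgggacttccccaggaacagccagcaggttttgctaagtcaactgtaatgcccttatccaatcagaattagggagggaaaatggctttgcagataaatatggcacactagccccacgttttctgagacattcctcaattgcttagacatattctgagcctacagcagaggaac
CYP1A1: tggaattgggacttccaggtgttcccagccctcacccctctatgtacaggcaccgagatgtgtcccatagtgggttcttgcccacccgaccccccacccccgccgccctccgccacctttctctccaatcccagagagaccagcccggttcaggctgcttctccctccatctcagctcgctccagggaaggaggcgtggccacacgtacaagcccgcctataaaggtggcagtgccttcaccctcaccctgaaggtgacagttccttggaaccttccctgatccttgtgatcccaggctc
VAV3: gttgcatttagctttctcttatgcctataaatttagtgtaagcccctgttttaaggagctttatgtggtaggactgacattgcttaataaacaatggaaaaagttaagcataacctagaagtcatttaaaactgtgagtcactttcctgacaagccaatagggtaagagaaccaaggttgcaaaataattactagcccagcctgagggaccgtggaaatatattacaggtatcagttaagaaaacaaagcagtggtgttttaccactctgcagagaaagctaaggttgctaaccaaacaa
The promoters of IFNL2 and IFNL3 were identical at 299 of 300 bases, and both held the core at position -176 from the TSS. Reads from such near copies may have been split or misplaced in the authors' counting, so the levels of these neighbouring genes are not fully separate measurements. IFNL1 held overlapping matches at -214 and -208, and its promoter matched that of IFNL2 at 26.7% of positions when compared base by base without gaps. CXCL10 held the core at -221. The table of RefSeq promoters is not complete, and it held 299 promoters of 239 genes in rising peaks. Of these, 66 (22.1%) held the core, against 2.93% of 10704 promoters in peaks that were not called and 3.17% of all 22183 promoters. The GAS letters, TTCNNNGAA, were in 11.7% of these promoters in rising peaks, against 6.16% in peaks not called and 6.79% of all. The AP-1 letters, TGANTCA, were in 6.35% of the promoters in rising peaks, against 5.48% in peaks not called and 6.15% of all. The E-box letters, CANNTG, were in 62.2%, against 60.2% in peaks not called and 65.1% of all. None of the 9 promoters in falling peaks held the ISRE core. These are counts of letters, with no test, and a match is not shown to be a bound site.

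H3K27ac rose at 1300 peaks and fell at 216 after hIFNb. Values are scores, the normalised peak counts deposited by the authors, whose scaling is not stated. A change is the difference of mean log2(score + 1), hIFNb minus UT, and was called at an adjusted p under 0.05 in limma over all peaks. Among all peaks, 4.07% were called higher and 0.676% lower, 4.74% in all. Called rises had a median log2 change of 1.87, with median scores of 97 in hIFNb and 23.5 in UT libraries. Called falls had a median change of -1.06, with median scores of 63 in hIFNb and 140 in UT libraries. Rises of at least 2 on the log2 scale numbered 559, and falls of that size numbered 10. In this bulk measurement, more cells carrying the mark and more of the mark per cell cannot be told apart.

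The number of calls depended on how the clones entered the test. When clone was added as a block, so that hIFNb was set against UT within a clone, 7867 peaks (24.6%) were called, 4271 higher (13.4%) and 3596 lower (11.3%), and all 1516 calls of the model without the block were among them. Rises made up 85.8% of the calls without the block and 54.3% with it. Leaving out 1 library gave 206 calls without hIFNb clone 1, 402 without hIFNb clone 4, 489 without UT clone 1 and 496 without UT clone 4, and 172 rises and 4 falls were called in all 4 of these fits. Genes named below as held are among those 176 peaks.

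Score totals were 3410393 and 3460390 in hIFNb clones 1 and 4 and 3408527 and 3414984 in the UT libraries of the same clones. Of the whole numbers up to 100, 10 and 29 were never used as a score in hIFNb clones 1 and 4, and 0 in either UT library. Scaling factors and depth may therefore differ between the groups, and their part in the results was not tested. The line's epithelial markers KRT7, KRT8, KRT18, EPCAM, CDH1 and SOX9 each had a promoter peak, with scores from 120 to 829 in hIFNb and 81 to 900 in UT libraries, and none was called (1 higher and 2 lower with the block). KRT19 and CFTR had no promoter peak. Of 24 markers of other cell types, 7 had a promoter peak, with scores from 10 to 765 in hIFNb and 13 to 1147 in UT libraries, and none was called (3 higher and 3 lower with the block). The highest were those of CPA1, a pancreatic acinar enzyme. PTPRC, CD3E and MS4A1, which define leukocytes, had none. The reference genes GAPDH and ACTB were not called. The GAPDH promoter had scores of 239 and 221 in hIFNb and 265 and 227 in UT libraries of clones 1 and 4. The ACTB promoter had 318 and 169 in hIFNb and 240 and 181 in UT libraries. Both sets overlap, and the changes were -0.09 ± 0.18 (SE) at GAPDH and 0.15 ± 0.28 at ACTB.

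**Figure D1:**
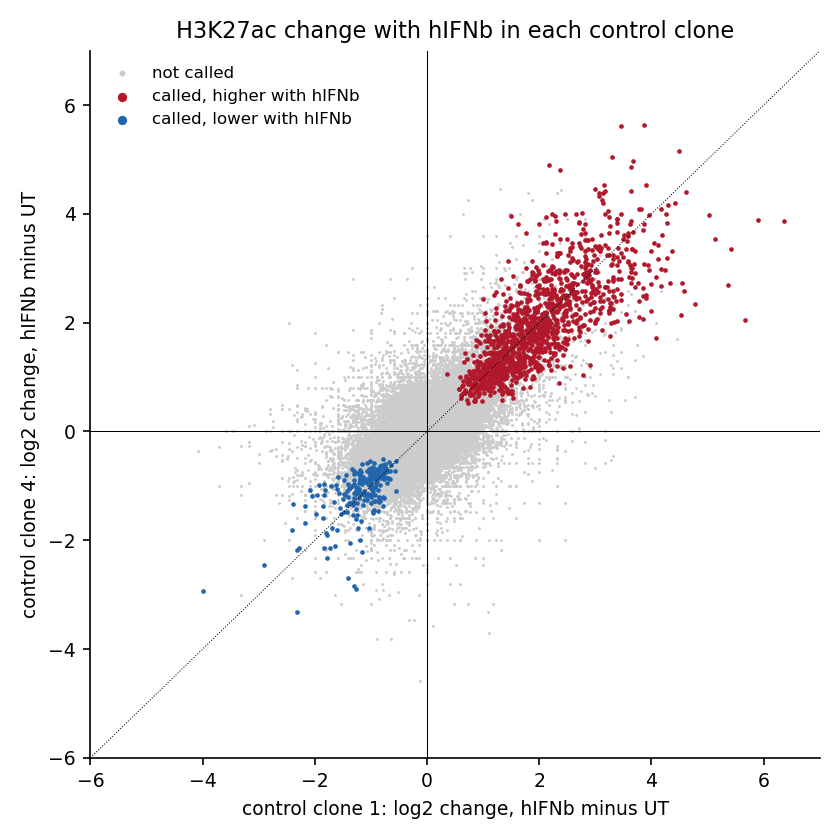
Log2 change in H3K27ac score, hIFNb minus UT, in control clone 1 (horizontal axis) and control clone 4 (vertical axis), 1 point per peak, with called rises in red, called falls in blue and other peaks in grey. The 1300 rises lie to the upper right and the 216 falls to the lower left, near the dotted line of equal change.

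Among the ligands, the lambda interferons and the chemokines of the CXCR3 receptor rose most. Of 25 peaks at 13 genes of the interferon and chemokine ligand list, 11 rose (44.0%) and none fell, against 4.07% of all peaks, and the list's median change was 1.29, against 0.00 over all peaks (17 and 2 with the block). The IFNL2 promoter peak, at a gene for a secreted lambda interferon, had scores of 163 and 87 in hIFNb and 1 and 5 in UT libraries of clones 1 and 4. The IFNL3 peak had 177 and 88 in hIFNb and 2 and 5 in UT libraries. The IFNL1 peak had 84 and 50 in hIFNb and 1 and 4 in UT libraries. All 3 peaks were close to empty without hIFNb and higher in clone 1 than in clone 4 with it. Their log2 changes were 5.12 ± 0.54 (SE, adjusted p = 0.00124), 4.89 ± 0.49 (0.00108) and 4.38 ± 0.61 (0.00393). IFNL2 and IFNL3 held, while IFNL1 was lost without hIFNb clone 1 (adjusted p = 0.0703). IFNL2 was the largest rise in the genome.

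A single peak held the starts of CXCL10 and CXCL11, chemokines that draw activated T cells. Its scores were 389 and 361 in hIFNb and 30 and 50 in UT libraries, a change of 3.24 ± 0.34 (adjusted p = 0.0012), and it held. TNFSF10, which encodes the death ligand TRAIL, had 3 called peaks out of 5 linked to it. The broadest of them, 11.9 kb from the TSS, had scores of 639 and 591 in hIFNb and 251 and 212 in UT libraries. Its change was 1.41 ± 0.18 (adjusted p = 0.00266), and it held. The TNFSF10 promoter peak had scores of 284 and 247 in hIFNb and 99 and 77 in UT libraries, a change of 1.59 (adjusted p = 0.00991), and was lost without hIFNb clone 1 (adjusted p = 0.1), hIFNb clone 4 (0.0555) or UT clone 4 (0.0761).

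In the list of receptors and kinases, the called rises lay at genes of kinases. Of 26 peaks at 9 genes, 3 rose (11.5%, against 4.07% of all peaks) and none fell, with a median change of 0.10. With the block 7 rose (26.9%) and 1 fell (3.85%), against 13.4% and 11.3% of all peaks. A peak 9.56 kb from the TSS of JAK1, in the gene's body, had scores of 120 and 158 in hIFNb and 28 and 25 in UT libraries. The groups did not overlap, the change was 2.34 ± 0.33 (adjusted p = 0.00425), and it held. The JAK2 promoter, whose kinase serves other cytokine receptors, had 113 and 82 in hIFNb and 41 and 31 in UT libraries (1.41 ± 0.29, adjusted p = 0.0233), and was lost without any 1 of the 4 libraries (adjusted p 0.0646 to 0.178). The promoters of the receptor chains, named after their values were seen, were not called. The IFNAR1 promoter had scores of 70 and 74 in hIFNb and 59 and 84 in UT libraries, and IFNAR2 had 38 and 42 in hIFNb and 22 and 33 in UT libraries.

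Among the transcription factors of the pathway, STAT2, IRF9 and IRF8 had called rises. Of 27 peaks at 15 STAT and IRF genes, 9 rose (33.3%), 1 fell and 17 were not called (14 and 1 with the block), with a median change of 0.67. Leaving out 1 library left from 2 to 7 of the list's peaks called higher. The STAT2 promoter had scores of 188 and 215 in hIFNb and 57 and 52 in UT libraries, a change of 1.87 ± 0.23 (adjusted p = 0.00241), and held. The IRF9 promoter had 372 and 302 in hIFNb and 210 and 139 in UT libraries. Its change was 0.97 ± 0.22 (adjusted p = 0.0358), lost without hIFNb clone 1 (adjusted p = 0.217), hIFNb clone 4 (0.0883) or UT clone 4 (0.217).

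The largest rise in this list was at IRF8, a factor best known from myeloid and B cells. The peak lay 34.3 kb from its TSS, and no peak lay at the IRF8 promoter. Scores were 220 and 168 in hIFNb and 8 and 7 in UT libraries, a change of 4.51 ± 0.43 (adjusted p = 0.000939), and it held. Peaks in the neighbouring bodies of STAT5A and STAT3 rose by 3.17 and 2.12. The STAT5A call was lost without any 1 library (adjusted p 0.0546 to 0.128), and that of STAT3 without hIFNb clone 1 (0.134), hIFNb clone 4 (0.0588) or UT clone 4 (0.101). The IRF1 peak, a domain of H3K27ac that spans the promoter, was not called. Its scores were 3003 and 2159 in hIFNb and 2014 and 1306 in UT libraries, so both hIFNb libraries were above both UT libraries, but clone 1 was well above clone 4 in each condition. The change was 0.65 ± 0.21 (adjusted p = 0.119), and with the clone as a block the adjusted p was 1.78e-08. Of 24 peaks at other interferon-linked transcription factors, 7 rose (29.2%, against 4.07% of all peaks) and none fell (12 and 1 with the block). The ETV7 promoter, at a gene for an ETS-family repressor, had 213 and 183 in hIFNb and 41 and 33 in UT libraries (2.39 ± 0.28, adjusted p = 0.00191) and held.

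**Figure D2:**
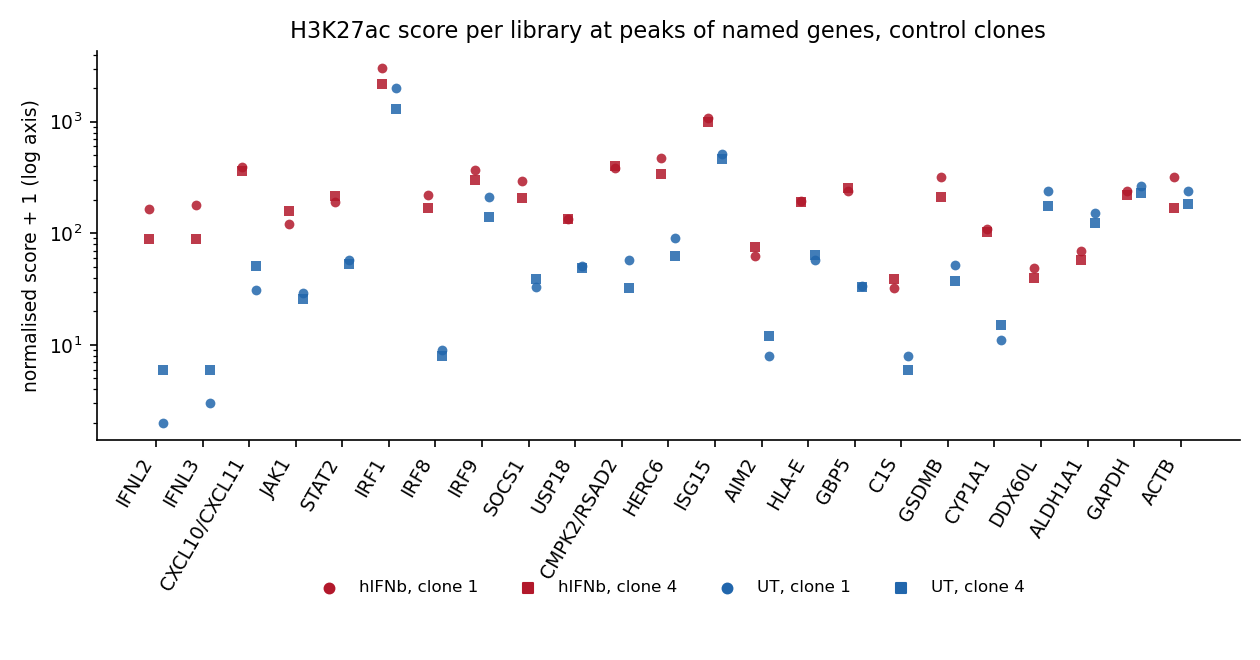
H3K27ac score plus 1 on a log axis at 1 peak for each named gene in the 4 control libraries, with hIFNb in red on the left and UT in blue on the right of each pair, circles for clone 1 and squares for clone 4. IFNL2 and IFNL3 start lowest without hIFNb, DDX60L and ALDH1A1 lie lower with hIFNb, and GAPDH and ACTB overlap.

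The feedback inhibitors were led by SOCS1, which blocks the receptor's kinases. Of 33 peaks at 16 genes, 4 rose (12.1%, against 4.07% of all peaks) and none fell, with a median change of 0.18. With the block 7 rose (21.2%, against 13.4% of all peaks) and 4 fell (12.1%, near the 11.3% of all peaks). The SOCS1 promoter had scores of 291 and 204 in hIFNb and 32 and 38 in UT libraries, a change of 2.77 ± 0.26 (adjusted p = 0.000939), and it held. The USP18 promoter had 134 in both hIFNb and 50 and 48 in UT libraries. USP18 removes ISG15 from proteins and also damps receptor signalling. The change was 1.43 ± 0.28 (adjusted p = 0.019), and it was lost without any 1 of the 4 libraries (adjusted p 0.096 to 0.125). A peak 22.1 kb from PTPN1, a phosphatase of JAK kinases, changed by 0.73 (adjusted p = 0.0377) and was likewise lost without any 1 (0.124 to 0.201).

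Antiviral effectors, the list with most peaks, also had the most rises of any list. Of 79 peaks at 55 genes, 36 rose (45.6%, against 4.07% of all peaks) and none fell (52 and 3 with the block). The share was higher in the lists of ISG15 conjugation (62.5%) and of GBP and APOL families (58.8%). Of the 36 antiviral rises, 32 were promoter peaks, and the list median was 0.91. A peak shared by CMPK2 and RSAD2 had scores of 387 and 396 in hIFNb and 57 and 31 in UT libraries. RSAD2 (viperin) makes a chain-terminating nucleotide from CTP, which the kinase CMPK2 supplies. The change was 3.19 ± 0.28 (adjusted p = 0.000718), and it held. EPSTI1, an interferon-induced gene first described in epithelial and stromal co-culture, had 140 and 147 in hIFNb and 24 and 18 in UT libraries (2.73 ± 0.34, adjusted p = 0.00241). A peak 13.1 kb from SAMD9L, a restriction factor of poxviruses, had 127 and 123 in hIFNb and 22 and 21 in UT libraries (2.49 ± 0.29, adjusted p = 0.00186). Both held, and in both the clones differed by far less than the groups.

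Further effectors that held are named here after their values were seen. MX1, a dynamin-like GTPase against influenza virus, had promoter scores of 918 and 742 in hIFNb and 202 and 127 in UT libraries (2.36 ± 0.24). The IFIT1 promoter peak, at a gene for a sensor of viral RNA caps, had 789 and 776 in hIFNb and 189 and 184 in UT libraries (2.06 ± 0.16). OAS2 and OAS3, synthetases of the oligoadenylates that activate RNase L, changed by 2.30 ± 0.26 and 2.01 ± 0.20. Their neighbour OAS1 had 390 and 377 in hIFNb and 150 and 165 in UT libraries (1.28, adjusted p = 0.0199) and was lost without any 1 library (0.0841 to 0.131). MX1, IFIT1, OAS1 and OAS3 had scores above 100 already in UT libraries, unlike the lambda interferons.

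ISG15 is a ubiquitin-like protein that is attached to viral and host proteins. The ISG15 promoter peak was 28537 bases wide and also held starts of AGRN and HES4, so its score is not that of ISG15 alone. It had scores of 1083 and 986 in hIFNb and 512 and 467 in UT libraries. The change was 1.08 ± 0.20 (adjusted p = 0.0142), and was lost without any 1 of the 4 libraries (adjusted p 0.0669 to 0.121). Of 8 peaks at the 6 genes of ISG15 conjugation, 5 rose (62.5%, against 4.07% of all peaks) and none fell. The median change was 1.48, and with the block 7 rose and none fell. HERC6, whose mouse form is the ligase for ISG15, had promoter scores of 471 and 338 in hIFNb and 89 and 61 in UT libraries (2.42 ± 0.25, adjusted p = 0.00112) and held. HERC5, the human ligase, had 97 and 78 in hIFNb and 16 and 14 in UT libraries (2.46 ± 0.49, adjusted p = 0.0202) and was lost without any 1 library (adjusted p 0.0879 to 0.145). UBE2L6, the conjugating enzyme, had 381 and 326 in hIFNb and 132 and 113 in UT libraries (1.52 ± 0.20, adjusted p = 0.00306) and was lost without hIFNb clone 1 (0.0516).

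Without the block, the nucleic acid sensors were the only list in which more than 1 peak fell. Of 18 peaks at 12 genes, 4 rose (22.2%) and 3 fell (16.7%), against 4.07% and 0.676% of all peaks. With the block 10 rose (55.6%) and 3 fell (16.7%), against 13.4% and 11.3% of all peaks. Other lists then had more falls, such as 18 at epithelial surface and mucin genes. AIM2, the sensor of cytosolic DNA in the inflammasome, had promoter scores of 61 and 74 in hIFNb and 7 and 11 in UT libraries (2.80 ± 0.33, adjusted p = 0.00199) and held. A peak with the starts of IFIH1, the sensor MDA5 of long double-stranded RNA, and of its neighbour GCA had 117 and 126 in hIFNb and 51 and 39 in UT libraries (1.42 ± 0.29, adjusted p = 0.0204). It was lost without any 1 library (adjusted p 0.0644 to 0.133). STING1, the adaptor of DNA sensing, named after its values were seen, had 591 and 481 in hIFNb and 245 and 230 in UT libraries (1.16, adjusted p = 0.0252) and was also lost without any 1 (0.0797 to 0.177).

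The 3 falls of that list lay in the bodies of DDX60L and RIGI, downstream of promoters that did not fall. RIGI encodes the sensor RIG-I of viral RNA ends, and DDX60L a helicase-like antiviral protein. The RIGI promoter had scores of 196 and 158 in hIFNb and 59 and 57 in UT libraries (1.59 ± 0.24, adjusted p = 0.00545), lost without hIFNb clone 1 (0.0757). In contrast, a peak centred 24.2 kb downstream of the gene's start had 18 and 11 in hIFNb and 62 and 52 in UT libraries (-1.94 ± 0.38, adjusted p = 0.0196), lost without any 1 library (adjusted p 0.0681 to 0.135). In DDX60L, the promoter had 501 and 491 in hIFNb and 423 and 333 in UT libraries and was not called (0.40 ± 0.18, adjusted p = 0.257), although with the block it was called higher (adjusted p = 0.00398). A peak centred 43.0 kb downstream had 48 and 39 in hIFNb and 236 and 175 in UT libraries. This was the largest fall linked to a gene, at -2.21 ± 0.23 (adjusted p = 0.0012), and it held. Another, centred 28.7 kb downstream, fell by 1.75 (adjusted p = 0.0222) and was lost without hIFNb clone 1 (0.0944), hIFNb clone 4 (0.123) or UT clone 1 (0.177). A peak centred 57.9 kb downstream, too far to be linked, fell by 1.71 (adjusted p = 0.0199) and was lost without any 1 library (0.0532 to 0.154).

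ACO1, the neighbour of RIGI, and TMEM106B also had both a called rise and a called fall. Across the genome, 297 genes had their TSS in a rising peak, and 167 peaks other than promoters lay in their bodies. Of these, 15 rose and 2 fell (8.98% and 1.20%), and the fall in RIGI was 1 of the 2. Among 7045 such peaks in the body of any gene with its TSS in a peak, 4.68% rose and 0.696% fell. With the block, the shares were 24.2% higher and 8.18% lower in the bodies of genes with a rising TSS peak, against 14.4% and 11.7%. Body peaks of genes with a rising TSS peak thus rose more often than they fell, and RIGI and DDX60L were individual cases.

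**Figure D3:**
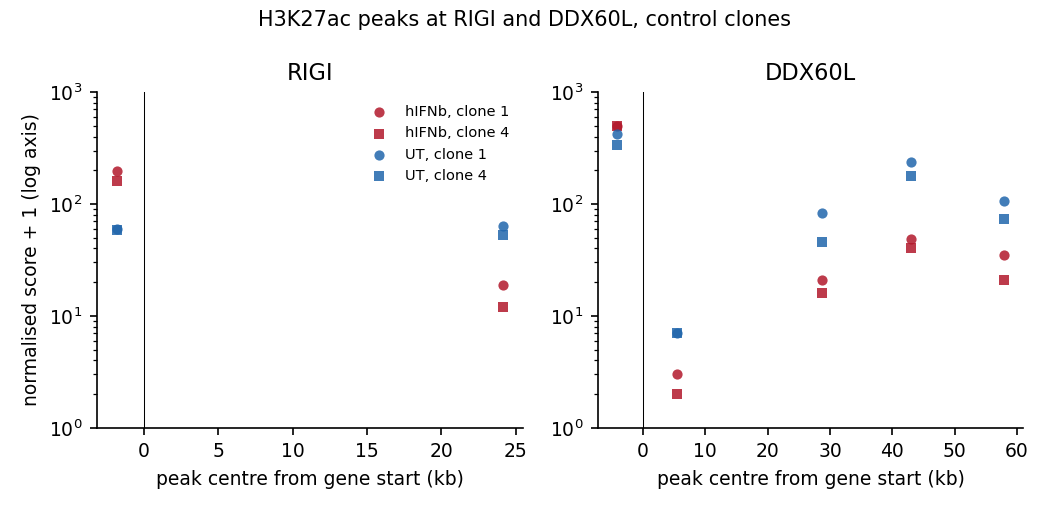
H3K27ac score plus 1 (log axis) in the 4 control libraries at every peak linked to or inside RIGI and DDX60L, against the distance of the peak's centre from the gene's start in kb, with hIFNb in red and UT in blue. At the start of both genes the hIFNb points lie above the UT points, and at the peaks more than 20 kb downstream they lie below.

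In antigen presentation, HLA-E, LAP3, NLRC5 and B2M had called rises. Of 38 peaks at 19 genes of MHC class I and peptide loading, 10 rose (26.3%), none fell and 28 were not called (19 and 0 with the block), against 4.07% of all peaks called higher, and the median change was 0.51. Leaving out 1 library left 2 or 3 of the list's peaks called higher. HLA-E, a non-classical class I molecule read by natural killer cells, had promoter scores of 195 and 190 in hIFNb and 57 and 63 in UT libraries (1.67 ± 0.21, adjusted p = 0.00275). LAP3, an aminopeptidase that trims peptides, had 274 and 292 in hIFNb and 82 and 90 in UT libraries (1.71 ± 0.21, adjusted p = 0.00231). Both held. NLRC5, the transactivator of class I genes, had 219 and 302 in hIFNb and 85 and 118 in UT libraries (1.35 ± 0.23, adjusted p = 0.011), lost without hIFNb clone 4 (0.0895) or UT clone 1 (0.0918). The peak at the start of B2M, the light chain of class I, also held a start of PATL2. It had 275 and 287 in hIFNb and 154 and 163 in UT libraries (0.82 ± 0.18, adjusted p = 0.0287). It was lost without any 1 library (adjusted p 0.115 to 0.164). The class I genes are near copies of each other, so reads may be shared between them.

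The list of guanylate-binding proteins and apolipoproteins L, effectors against intracellular pathogens, had 17 peaks, with a median change of 0.93. Of these, 10 rose and none fell with and without the block. That is 58.8%, against 4.07% of all peaks without the block and 13.4% with it. The 10 rises included the promoter peak of NUB1, a listed gene with neither family name (1.85 ± 0.31, adjusted p = 0.0085). The GBP5 promoter had scores of 240 and 252 in hIFNb and 33 and 32 in UT libraries (2.88 ± 0.30, adjusted p = 0.00118). A neighbouring peak 8.72 kb from the TSS had 244 and 214 in hIFNb and 33 and 28 in UT libraries (2.87 ± 0.27, adjusted p = 0.000939). The GBP1 promoter had 445 and 404 in hIFNb and 130 and 86 in UT libraries (1.99 ± 0.25, adjusted p = 0.00266). All 3 peaks held, and these genes too are near copies.

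In complement, 3 of 17 peaks rose (17.6%, against 4.07% of all peaks) and none fell (6 and 0 with the block). CFB, factor B of the alternative pathway, had 329 and 235 in hIFNb and 94 and 83 in UT libraries (1.64 ± 0.22, adjusted p = 0.00351) and was lost without hIFNb clone 1 (adjusted p = 0.054). C1S, a protease of the classical pathway, had 31 and 38 in hIFNb and 7 and 5 in UT libraries (2.35 ± 0.53, adjusted p = 0.0337) and was lost without any 1 library (0.112 to 0.162). In cell death genes, 3 of 25 peaks rose and none fell (9 and 2 with the block). GSDMB, a pore-forming gasdermin of epithelia, had promoter scores of 318 and 210 in hIFNb and 51 and 36 in UT libraries (2.56 ± 0.32, adjusted p = 0.00232) and held. Of 17 peaks at immune checkpoint genes, 2 rose (11.8%) and none fell. With the block 9 rose (52.9%) and 2 fell (11.8%). IL18BP, the decoy of interleukin 18, had 152 and 84 in hIFNb and 22 and 19 in UT libraries (2.41 ± 0.37, adjusted p = 0.00616), lost without hIFNb clone 1 (0.0885). The promoter of CD274, which encodes PD-L1 and is named after its values were seen, had 281 in both hIFNb and 196 and 158 in UT libraries and was not called (0.67, adjusted p = 0.287; 0.000667 with the block).

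Metabolic genes were taken in several lists, which were not tested against each other. Of 28 peaks at enzymes known as interferon-linked, 6 rose (21.4%, against 4.07% of all peaks) and none fell, with a median change of 0.48. With the block 10 rose (35.7%) and 1 fell (3.57%), against 13.4% and 11.3% of all peaks. CMPK2 led the list. A peak 3.18 kb from GCH1, the first enzyme of tetrahydrobiopterin synthesis, had scores of 74 and 60 in hIFNb and 7 and 8 in UT libraries (2.99 ± 0.47, adjusted p = 0.00662). It was lost without hIFNb clone 1 (adjusted p = 0.0917), hIFNb clone 4 (0.0507) or UT clone 1 (0.0506). The WARS1 promoter peak, at the gene for tryptophan-tRNA ligase, also held a start of WDR25. It had 218 and 194 in hIFNb and 89 and 81 in UT libraries (1.27 ± 0.20, adjusted p = 0.0065), and was lost without hIFNb clone 1 or UT clone 4.

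In core pathways the shares of called rises lay on either side of the 4.07% of all peaks. In cholesterol synthesis and uptake, none of 31 peaks was called (1 rose with the block), and the median change was -0.05. In glycolysis 1 of 35 (2.86%) rose (3 rose and 6 fell with the block), at PGAM1, with 171 and 166 in hIFNb and 89 and 100 in UT libraries (0.83 ± 0.20, adjusted p = 0.0465), lost without any 1 library (0.135 to 0.231). At genes of the TCA cycle and electron transport 1 of 42 peaks (2.38%) rose (7 and 4 with the block), a peak with the starts of SDHA and CCDC127 (1.07, adjusted p = 0.0233), lost without any 1 library (0.085 to 0.165). In fatty acid synthesis and activation 3 of 53 (5.66%) rose (12 and 4 with the block), all away from promoters. With the block, 3.23% of peaks in cholesterol, 8.57% in glycolysis, 16.7% in TCA cycle and 22.6% in fatty acid genes were higher, against 13.4% of all peaks. Counts this small near the share of all peaks are no result about these pathways.

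Among genes of xenobiotic, steroid and retinoid metabolism, 4 of 56 peaks rose (7.14%) and 1 fell (1.79%), against 4.07% and 0.676% of all peaks. With the block 9 rose (16.1%) and 13 fell (23.2%), against 13.4% and 11.3% of all peaks. Falls with the block were more frequent at higher peaks. They took 18.2% of peaks with a mean control score of 100 to under 200, and this list's median UT score was 127.5. The median change was -0.08. The rises included CYP1A1, CYP1B1 and AHRR, which are textbook targets of the aryl hydrocarbon receptor, a grouping made after their values were seen. The CYP1A1 promoter, at a monooxygenase gene, had scores of 109 and 101 in hIFNb and 10 and 14 in UT libraries (3.04 ± 0.38, adjusted p = 0.00244), and it held. The CYP1B1 promoter had 1833 and 1669 in hIFNb and 1007 and 1106 in UT libraries (0.73 ± 0.15, adjusted p = 0.0204), lost without any 1 library (adjusted p 0.077 to 0.145). A peak in the body of AHRR, the receptor's repressor, had 502 and 492 in hIFNb and 118 and 196 in UT libraries (1.70 ± 0.24, adjusted p = 0.00384), lost without hIFNb clone 1 (0.0516). Other targets were not called: the differences were 0.22 at the NQO1 promoter and 0.57 at the TIPARP promoter (adjusted p = 0.519 and 0.185), and TIPARP was called higher with the block (0.0226). The fall was 24.6 kb from ALDH1A1, a retinaldehyde dehydrogenase, with 69 and 57 in hIFNb and 151 and 123 in UT libraries (-1.11 ± 0.22, adjusted p = 0.0196). It was lost without any 1 library (0.0621 to 0.149).

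At genes of epithelial identity, rises called without the block were about as frequent as over all peaks or absent. None of 42 peaks at ductal and endodermal transcription factors was called. With the block 3 rose (7.14%) and 5 fell (11.9%), against 13.4% and 11.3% of all peaks. Of 47 peaks at epithelial surface and mucin genes, 2 rose (4.26%, against 4.07% of all peaks) and none fell, with a median change of -0.25. With the block, 5 rose and 18 fell, 38.3% of the list against 11.3% of all peaks. Among peaks with a mean control score of 100 to under 200, 18.2% fell with the block, and this list's median UT score was 123.5. The list's falls were small, such as -0.27 at the CDH1 promoter and -0.34 at MUC5AC. A peak 15.1 kb from the TSS of CEACAM1, an adhesion and checkpoint molecule, went the other way, with 53 and 31 in hIFNb and 2 and 4 in UT libraries (3.42 ± 0.54, adjusted p = 0.00663), lost without hIFNb clone 1 (adjusted p = 0.0948) or UT clone 1 (0.0535). Of 42 peaks at basal and mesenchymal genes 1 (2.38%) rose (7 and 3 with the block), and of 26 at markers of other cell types none was called (5 and 6 with the block).

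In NF-kB and acute phase genes, 4 of 54 peaks (7.41%) rose and none fell. With the block 16.7% were higher and 11.1% lower, against 13.4% and 11.3% of all peaks, so that these shares are near those of all peaks. The SAA1 promoter, at an acute phase apolipoprotein gene with near copies, had 197 and 112 in hIFNb and 38 and 15 in UT libraries (2.58 ± 0.47, adjusted p = 0.0129), lost without hIFNb clone 1 (adjusted p = 0.128) or UT clone 4 (0.0846). None of 45 peaks at AP-1 and early response genes was called (6 rose and 3 fell with the block, 13.3% and 6.67%). Of 36 peaks at cell cycle genes 2 (5.56%) rose, near the share of all peaks (5 and 2 with the block). One was in the body of BUB1, a spindle checkpoint kinase, with 205 and 213 in hIFNb and 68 and 57 in UT libraries (1.73 ± 0.24, adjusted p = 0.00384), and it held. Of 20 peaks at housekeeping genes 2 (10.0%) rose (3 and 1 with the block), those of B2M and of SDHA. Over the 27 lists, 128 of 893 peaks rose (14.3%) and 5 fell, so that 1172 of the 1300 rises lay outside them.

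**Figure D4:**
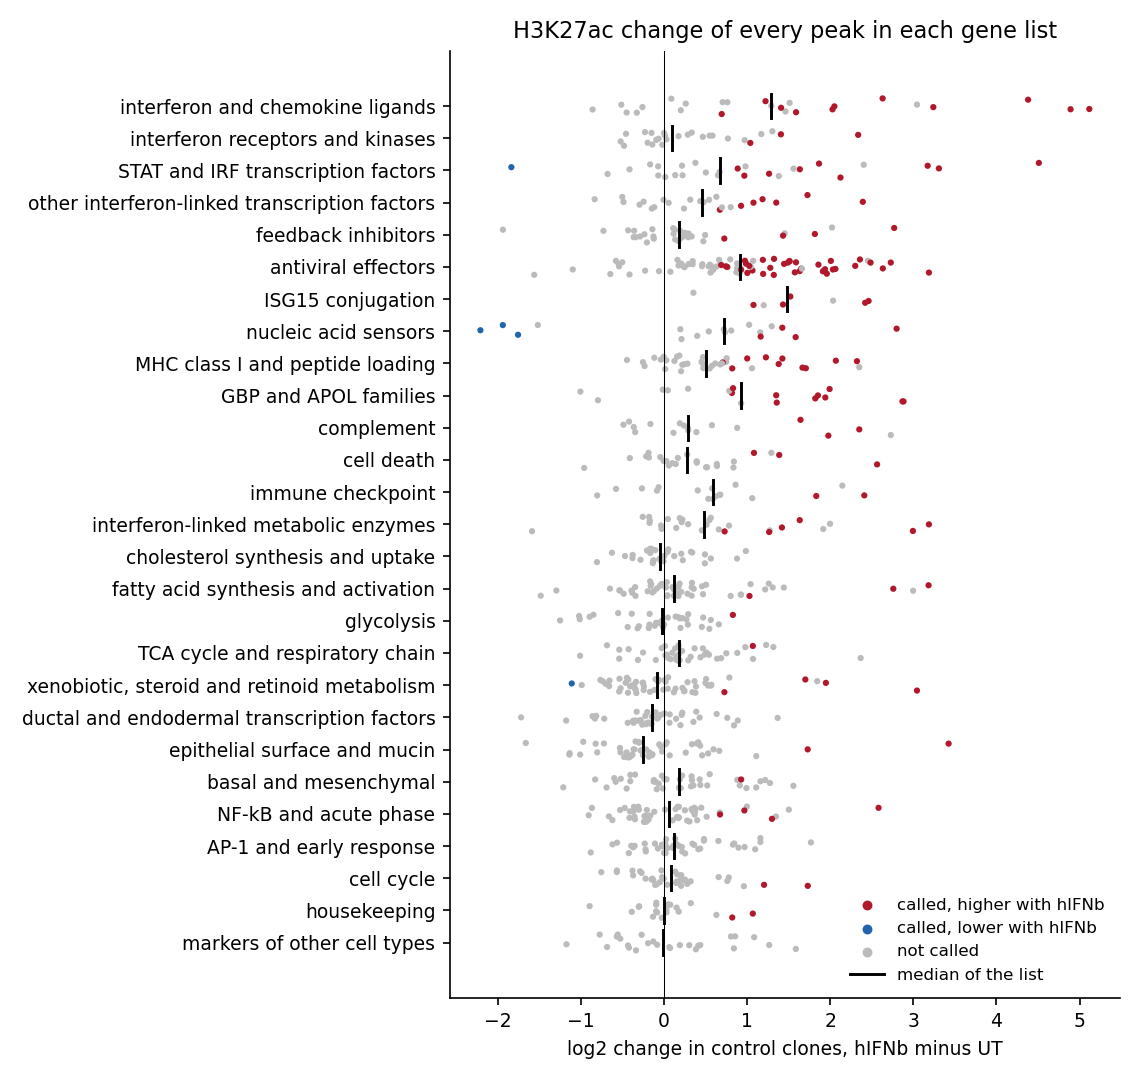
Log2 change in control clones, hIFNb minus UT, of every peak linked to a gene of each list, with called rises in red, called falls in blue, other peaks in grey and a bar at the list's median. The medians of ligands (1.29), ISG15 conjugation (1.48), GBP and APOL families (0.93) and antiviral effectors (0.91) lie to the right, while the medians of cholesterol (-0.05) and glycolysis genes (-0.03) lie near 0 and that of epithelial surface genes (-0.25) is the lowest.

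Many of the largest rises were linked by distance to genes in no list, and those named here, except that at EML1, lay outside promoters. A peak 12.4 kb from ARRDC3, an arrestin-like adaptor of receptor trafficking, had scores of 89 and 70 in hIFNb and 3 and 1 in UT libraries (4.82 ± 0.56, adjusted p = 0.0019). A peak 12 kb from SNX20, a sorting nexin of leukocytes, had 171 and 147 in hIFNb and 7 in both UT libraries (4.32 ± 0.29, adjusted p = 0.00046). A peak 34.7 kb from CLMP, a junctional adhesion molecule, had 185 and 173 in hIFNb and 11 and 10 in UT libraries (3.97 ± 0.34, adjusted p = 0.000718). All 3 held, and in each the scores of the clones were close within a treatment. A peak 1.90 kb from a start of EML1, a microtubule-binding protein, had 43 and 49 in hIFNb and 2 and 0 in UT libraries (4.76 ± 0.78, adjusted p = 0.00771), lost without hIFNb clone 1 (0.0776), hIFNb clone 4 (0.0646) or UT clone 4 (0.0586). Peaks of RMI1, GALP, CHN1 and PCNX1 had changes from 4.06 to 4.25, with scores of at most 5 in UT libraries. These 4 calls were lost without hIFNb clone 1 (adjusted p 0.101 to 0.138) or hIFNb clone 4 (0.071 to 0.0983), 3 of them without UT clone 1 (0.0652 to 0.102) and 3 without UT clone 4 (0.0944 to 0.0991). Links rest on distance, and none of these genes is shown to be the target of its peak.

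The largest gains in score, as opposed to log2 change, came from broad domains. The domain at DDX52, a gene for an RNA helicase, had scores of 2447 and 2470 in hIFNb and 1065 and 1082 in UT libraries (1.19 ± 0.13, adjusted p = 0.00154), and it held. A domain 49.3 kb from DUSP22, a phosphatase gene, had 1398 and 1523 in hIFNb and 445 and 589 in UT libraries (1.51 ± 0.21, adjusted p = 0.00425), and it held. The domain at the EXOC3 promoter, which extends into AHRR, had 1932 and 1848 in hIFNb and 674 and 875 in UT libraries (1.30 ± 0.18, adjusted p = 0.00366), lost without hIFNb clone 1 (0.0502). A domain 29.9 kb from DUOX2, a hydrogen peroxide-producing oxidase of mucosal epithelia, had 1875 and 2101 in hIFNb and 760 and 1103 in UT libraries. Its change was 1.12 ± 0.20 (adjusted p = 0.0127), lost without hIFNb clone 1 (0.0819), hIFNb clone 4 (0.0897) or UT clone 1 (0.0986). The ETS2 promoter domain, at a transcription factor gene, had 2545 and 2339 in hIFNb and 1549 and 1572 in UT libraries (0.64 ± 0.12, adjusted p = 0.0168), lost without any 1 library (0.0646 to 0.13).

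GBP5, RNF111, TNFSF10 and TTLL11 were the genes with most called peaks, 3 each and all rises. In TTLL11, a gene for a tubulin polyglutamylase, the largest rise was 20.2 kb from the TSS, with 56 and 77 in hIFNb and 2 and 9 in UT libraries (3.61 ± 0.52, adjusted p = 0.00482). It was lost without hIFNb clone 4 (adjusted p = 0.0507). Called peaks more than 50 kb from any protein-coding TSS numbered 590. The peak at chr15:77609005-77617295 in the body of LINGO1 had 261 and 110 in hIFNb and 7 and 6 in UT libraries (4.51 ± 0.42, adjusted p = 0.000939), and it held. The peak at chr2:44834325-44837749, outside any gene body, had 43 and 48 in hIFNb and 3 and 0 in UT libraries (4.54 ± 0.67, adjusted p = 0.00531), lost without hIFNb clone 1 (0.0615) or hIFNb clone 4 (0.0507).

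Falls were smaller and further from promoters than rises. The largest in the genome, at chr2:41805469-41810007 and remote from any protein-coding TSS, had scores of 1 and 4 in hIFNb and 31 and 37 in UT libraries. The change was -3.46 ± 0.68 (adjusted p = 0.019), lost without hIFNb clone 1 (adjusted p = 0.143), UT clone 1 (0.0922) or UT clone 4 (0.105). After DDX60L, the falls linked to genes included 1 at 33.2 kb from LYZL1, a lysozyme-like gene, with 13 and 18 in hIFNb and 49 and 83 in UT libraries (-1.99 ± 0.35, adjusted p = 0.0114), and that of RIGI. The LYZL1 call was lost without hIFNb clone 1 (adjusted p = 0.103) or UT clone 4 (0.0949). A peak 12.1 kb from SHB, an adaptor of receptor tyrosine kinases, had 9 and 11 in hIFNb and 44 and 30 in UT libraries (-1.77 ± 0.40, adjusted p = 0.0326), lost without any 1 library (0.0868 to 0.215).

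Of 9960 promoter peaks, 10 fell, and 429 with the block. The SLC17A7 peak, 1.67 kb from the start of a vesicular glutamate transporter gene, had 9 and 8 in hIFNb and 27 and 24 in UT libraries (-1.48 ± 0.36, adjusted p = 0.0428). The VAV3 peak, at the internal start shown above, had 33 and 38 in hIFNb and 99 and 102 in UT libraries (-1.48 ± 0.30, adjusted p = 0.0213). VAV3 is a guanine nucleotide exchange factor. The NABP1 promoter, at a gene for a single-stranded DNA-binding protein, had 73 and 85 in hIFNb and 167 and 157 in UT libraries (-1.03 ± 0.20, adjusted p = 0.0173). In all 3 the groups were apart, and each call was lost without any 1 library (adjusted p from 0.0615 to 0.22). No promoter fall was called in any of the 4 fits without 1 library.

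Rises and falls differed in where they lay and how high the peaks were. A promoter peak held a TSS or had one within 2 kb, a distal peak had one within 50 kb, and a remote peak had none. Rises took 2.88% of promoter, 4.98% of distal and 4.20% of remote peaks, and falls took 0.100%, 0.545% and 1.36%. With the block, rises took 12.1%, 14.8% and 12.95%, and falls 4.31%, 11.2% and 17.8%. The median change was 0.10 over promoter peaks, -0.04 over distal and -0.15 over remote peaks. Among 965 peaks with a mean UT score under 5, 154 rose and none fell, but a peak that starts so low can hardly fall. By the mean of all 4 control libraries, rises took from 0% of peaks under 5 to 5.40% of those from 100 to under 200, and falls went up to 1.63% of those from 200 to under 500. Called rises were linked to 784 genes and called falls to 68, and with the block to 2400 and 1401.

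**Figure D5:**
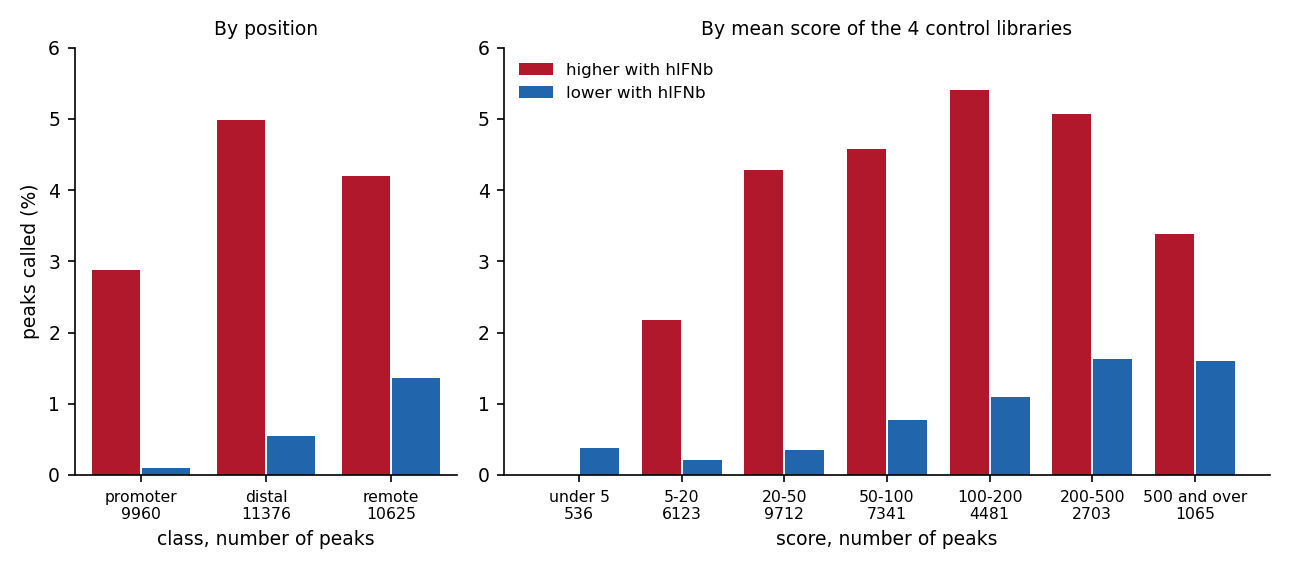
Percentage of peaks called higher (red, left) and lower (blue, right) with hIFNb, by position (first panel) and by the mean score of the 4 control libraries (second panel), with the number of peaks under each class. Falls took 0.100% of promoter and 1.36% of remote peaks, and rises were most frequent among distal peaks (4.98%).

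Called peaks lay near others called in the same direction. Another rise lay within 50 kb of 293 of the 1300 rises (22.5%), against 8.11% of all peaks. Another fall lay within 50 kb of 42 of the 216 falls (19.4%), against 1.61% of all peaks. A fall lay within 50 kb of 4 rises (0.308%), so rises and falls were seldom neighbours.

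Each clone gave its own change at every peak. Over all peaks the change had the same sign in 69.8%, and it correlated between the clones with r = 0.685 across peaks, which share libraries and are not independent. The median change of called rises was 1.89 in clone 1 and 1.84 in clone 4, and 706 of the 1300 (54.3%) were larger in clone 1. Falls had medians of -1.12 and -1.02. A peak at which the clones differed was less likely to be called without the block, so the likeness of called changes is partly set by the call. With 1 pair of libraries a clone there is no test between them. The largest gap among the named peaks was at IFNL2, which changed by 6.36 in clone 1 and 3.87 in clone 4. The groups did not overlap at 48.7% of all peaks, with hIFNb above UT at 25.7% and below it at 23%, so non-overlap is given here only as a description.

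The response of the control clones was also tested against that of the IRF1-guide clones. Without the block, none of 31961 peaks was called in limma (smallest adjusted p = 0.599, 1258 at an unadjusted p under 0.05). With the clone as a block 244 (0.763%) were called. The log2 change, taken with its sign, was lower in the IRF1-guide clones at 210 of them and higher at 34. A higher value can be a larger rise or a smaller fall, as at VAV3 (-0.50, against -1.48 in control clones). Among the peaks named above, the rise 49.3 kb from DUSP22 was 0.60 in the IRF1-guide clones, against 1.51 in control clones. The rise at CLMP was 1.65, against 3.97 in control clones. HERC6 showed the opposite order, with 3.55 in the IRF1-guide clones, against 2.42 in control clones.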

How the data were processed

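Chromatin was immunoprecipitated with 10 µg of anti-H3K27ac antibody, per the labels' protocols. Reads were aligned with Bowtie2 (version not given) to GRCh38, per the submitters' processing notes. For peak calling, counting and scaling the tools are not stated in the sources used here, and sequencing depth is unknown. The deposited table holds 1 normalised score per peak and library, rounded by the authors to whole numbers, plus other columns with peak widths and TSS distances. Log2(score + 1) was fitted in limma 3.58.1 (R 4.3.3) as group means of all 8 libraries, with moderated variances that follow the mean score, and p was adjusted by Benjamini-Hochberg over 31961 peaks. Requiring a score above 0 in 2 libraries removed no peak. Replicates are clones. The labels' clone numbers pair a clone's libraries, whose deviations from group means correlated at 0.437 across peaks (0.392 in IRF1-guide clones). Blocked counts are given beside the counts of calls.

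Peaks were linked to the protein-coding gene with a TSS inside, or else the nearest within 50 kb of the peak's edge. TSS positions came from the authors' distances and from RefSeq on GRCh38.p14. Of 29099 TSS names, 27043 matched RefSeq. The fit without the block was also run on simulated scores with independent noise in each library. The simulation held no effect shared by a clone's libraries and no scaling difference, so it cannot speak to either. Members, lists and tests were chosen with earlier results of these data known. Named were the up to 12 largest rises and 12 falls with a linked gene, the 8 largest gains in score, up to 4 genes a list, the 5 largest rises and falls without a linked gene, genes with most called peaks, the 5 largest promoter falls, and IRF1, IRF9, ISG15, GAPDH and ACTB. Of these 123 peaks, those with most to show are printed; some items are not reported here. Other pseudocounts, filters, scalings, fits and leave-outs were tried.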

Additional observations from a re-analysis of the deposited data

Results flagged for a closer look

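With the clone as a block, 18 of 123 named peaks (14.6%), against 244 of all 31961 peaks (0.763%), had a log2 change after hIFNb that differed between the genotypes at an adjusted p under 0.05 in limma. Without the block none was called, so each rests on the pairing by clone. Differences are IRF1-guide minus control log2 changes. The rise was smaller in the IRF1-guide clones at PCNX1 (-4.86), ARRDC3 (-4.22), EML1 (-3.71), CLMP (-2.32), IRF8 (-1.99), IL18BP (-1.86), the GBP5 peak 8.72 kb from its TSS (-1.49), JAK1 (-1.43), GBP6 (-1.19), DUSP22 (-0.91), DDX52 (-0.49) and ETS2 (-0.43). At PCNX1 the IRF1-guide clones changed by -0.79, against 4.06 in control clones. The rise was larger in the IRF1-guide clones at HERC6 (1.13), UBE2L6 (0.83) and IRF9 (0.74). The fall was smaller in the IRF1-guide clones at chr2:41805469-41810007 (2.14), LYZL1 (1.61) and VAV3 (0.98). These peaks were named for large changes in the control clones, a choice that uses the same control libraries as the difference.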

How the results depend on the processing

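The model of all 8 libraries made 1516 calls, of which 423 had an adjusted p under 0.01. The 4 control libraries alone gave 917 calls, 837 of them among the 1516. The clone as a block gave 7867 (6350 in the 4 control libraries), with all 1516 among either set. Leaving out 1 library gave from 206 to 496. In the same order, the 297 promoter calls became 86, 170, 1638 (1237) and from 40 to 107, and 188 without the mean-variance trend. The 1219 calls elsewhere became 337, 747, 6229 (5113) and from 166 to 409. The 133 calls in the lists became 346 with the block (292), 58 at an adjusted p under 0.01 and from 31 to 64 without 1 library. The test of the difference between genotypes gave 0 calls without and 244 with the block. Median centring left 1091 rises and 344 falls, and quantile normalisation 1212 and 297. Of 123 named peaks, 122 kept their side of the threshold with the block and IRF1 gained a call. Without a library from 64 to 86 lost theirs, most without hIFNb clone 1. The change reversed at GAPDH without UT clone 1, with leave-outs from -0.20 to 0.018, and at ACTB without hIFNb clone 1 (-0.30) or UT clone 4 (-0.05), with leave-outs up to 0.61. The cause of these shifts was not tested, other than that fewer libraries enter a leave-out. Where a group is left with 1 library, that library is assumed to vary like the other groups.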
